A study of Caenorhabditis elegans with 6 samples.

Results

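The left arm of chromosome III was defined by position alone, as all windows of chromosome III whose midpoint lay from 100 kb to below 3.7 Mb on the ce10 assembly of *Caenorhabditis elegans*. It held 3600 windows of about 1 kb (III 99951 to 3699917) of the 100293 windows in the genome-wide table, and 3592 of them had a read in at least 1 library. The centre of the same chromosome (3.7 to below 10 Mb) held 6300 windows, 6279 of them with reads, and the right arm, used only as a second arm, held 3684. The counts came from ChIC-seq, a CUT&RUN-like assay in which a fusion of protein A and micrococcal nuclease (MNase) cuts DNA around a bound antibody, and were made on L3 body wall muscle cells isolated by FACS from synchronized cultures. The WT was N2 (Bristol) and the mutant was *met-2(n4256) III*. Per the methods, the cells were fixed in ethanol, small numbers were sorted per sample, and the muscle cells of the study were gated by a *myo-3* promoter RFP reporter. For the sort of the fixed ChIC-seq cells, the methods name Hoechst as the gating marker and mention no RFP gate. The labels name only the strains above, so whether these animals carried the reporter was not settled. The groups were WT H3K9me2, WT H3K9me3, WT H3K27ac, *met-2* H3K27ac, plus antibody-free MNase controls of WT and of *met-2*, with 1 library in each group. Every difference below is therefore a difference between libraries, with no estimate of the spread between replicates and no p-value. Genes and sequences of the windows, and muscle markers that would test the tissue label, were not analysed here.

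As background, methylation of histone H3 on lysine 9 marks heterochromatin. In *C. elegans* MET-2 places the lower methylation states on H3K9 and SET-25 places H3K9me3. Worm chromosomes are holocentric, and their autosomes have repeat-rich arms, which hold most H3K9me and contact the nuclear envelope, and gene-dense centres that hold most constitutively active genes. H3K27ac is found at active promoters and enhancers.

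The library totals ran from 2475550 reads in the *met-2* control to 28519008 in WT H3K9me3. The *met-2* control stood apart, since the WT control was 3.99 times as deep. In the left arm the median window held 196 H3K9me2 reads and 248 H3K9me3 reads. The H3K27ac libraries had medians of 111 in WT and 201 in *met-2*, and the WT control one of 65. In the *met-2* control it held only 17 reads, and 80 of the 3592 arm windows had none, so values of single windows over that control are the least precise. The windows at the edges of the arm were not alike. The first window inside the outer border held 5 WT H3K27ac and 12 H3K9me3 reads, against 17 and 48 in the window just outside. At the inner border the last arm window held 132 WT H3K27ac and 224 H3K9me3 reads, and the first window of the centre held 86 and 131.

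The share of reads in the arm, divided by the arm's share of window length, was below 1 in all 6 libraries. It stood at 0.979 and 0.942 for H3K9me2 and H3K9me3, at 0.872 (WT) and 0.897 (*met-2*) for H3K27ac, and at 0.925 (WT) and 0.829 (*met-2*) for the controls. In the centre the same ratio ran from 1.00 for H3K9me3 and 1.05 for H3K9me2, through 1.11 (WT) and 1.08 (*met-2*) for the controls, to 1.25 (WT) and 1.17 (*met-2*) for H3K27ac. The arm thus held fewer reads per base than the centre whether or not an antibody was used. The gap between the arm and the centre was narrowest for the H3K9me libraries and widest for WT H3K27ac.

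**Figure D1:**
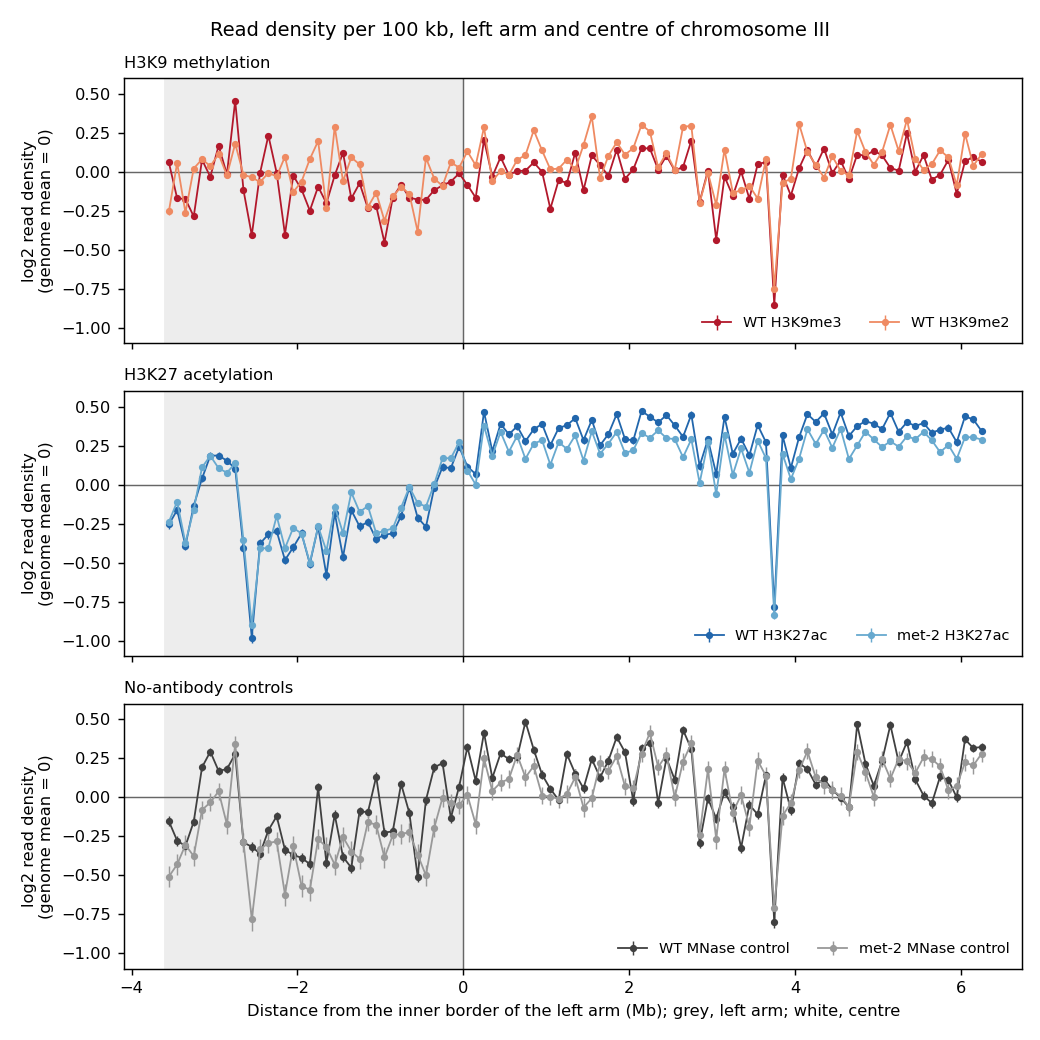
log2 read density per 100 kb bin (y axis, 0 is the mean over the genome) against the distance of the bin from the inner border of the left arm in Mb (x axis), for the 6 libraries. Grey shading marks the 36 bins of the left arm, bars are 95% counting intervals, and the WT H3K27ac density of the arm is lowest at -0.98 and highest, at 0.24, next to the inner border.

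H3K9me3 was higher over the control in the left arm than in the centre. Reads were scaled to the average library total, 8 was added, log2 was taken and the value of the WT control was subtracted. On this log2 scale the median window of the arm was at 0.41 (95% interval over windows 0.36 to 0.45, quartiles -0.30 and 1.02) and that of the centre at 0.15 (0.12 to 0.18), a difference of 0.26. A total of 1656 arm windows (46.1%) were above 0.5, the threshold for an enriched window, against 42.7% of all windows of the genome and 35.5% of the centre. The arm was therefore only slightly above the genome as a whole in this share, and further above the centre of its own chromosome. Windows below -0.5 made up 19.6% of the arm (703 windows), 20.8% of all windows and 24.6% of the centre. Of the arm windows past the threshold either way, 70.2% were thus higher, and with TMM scaling, which moved the median of all windows from 0.32 to 0.047, 55.7% were. The medians were then 0.13 in the arm and -0.13 in the centre.

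The H3K9me2 values ran the same way with a smaller gap. The median over the WT control was 0.27 (0.24 to 0.31) in the arm and 0.12 (0.090 to 0.15) in the centre, a difference of 0.15. Of the arm windows 1446 (40.3%) were above 0.5, beside 36.1% of all windows and 32.9% of the centre, and 771 (21.5%) were below -0.5, beside 22.7% and 24.5%. The right arm differed from the left in this mark, since its median of 0.052 lay below that of the centre, although over the *met-2* control it lay above it (0.016 against -0.023).

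The control library bears on these values. H3K9me3 reads without a control were lower in the arm than in the centre by 0.12 in the median log2 value, and H3K9me2 reads were lower by 0.15. WT control reads were lower in the arm by 0.33 and *met-2* control reads by 0.41, so the excess of both marks over the control in the arm went with fewer control reads there. Over the *met-2* control, which shares no reads with the WT control, the arm remained above the centre. For H3K9me3 the medians were then 0.29 and -0.0055, a difference of 0.30, and 1425 arm windows (39.7%, against 29.9% of all windows and 24.8% of the centre) were above 0.5. For H3K9me2 they were 0.22 and -0.023, a difference of 0.24, with 1391 arm windows (38.7%, against 28.2% and 26.9%) above 0.5. An arm window was above 0.5 over both controls in 805 cases for H3K9me3 (22.4%, against 16.2% of all windows and 11.3% of the centre) and in 780 cases for H3K9me2 (21.7%, against 14.4% and 12.8%). Both marks passed over both controls in 403 arm windows (11.2%, against 6.67% of all windows and 4.95% of the centre). The same rule was also met for H3K27ac, by 608 arm windows in WT (16.9%, against 15.7% of all windows and 20.8% of the centre). In *met-2* it was met by 705 (19.6%, against 17.1% and 18.3%), so passing over both controls was not confined to the H3K9me marks. These classes were set up after values had been seen.

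A comparison of the antibody libraries with each other needs no control. The median log2 ratio of H3K9me3 to WT H3K27ac reads was 0.091 (0.073 to 0.11) in the arm, -0.30 (-0.31 to -0.29) in the centre and -0.058 in the right arm. The ratio was above 0.5 in 789 of the 3592 arm windows (Wilson 95% interval of the share 20.6 to 23.3%), against 17.2% of all windows and 2.02% of the centre. In the bins of 100 kb it was higher than the median bin of the centre in 36 of 36 arm bins, and higher than the highest of the 63 centre bins in 27. H3K9me2 over WT H3K27ac gave medians of -0.00046 in the arm and -0.37 in the centre, with 25.8% of arm windows above 0.5 against 19.8% of all windows and 10.0% of the centre. In median log2 reads each of these marks was lower in the arm than in the centre, H3K9me3 by 0.12, H3K9me2 by 0.15 and WT H3K27ac by 0.53. In reads without a control, all 3 marks were thus lower in the arm, and H3K27ac by the most. Control reads were lower there too, by 0.33 in WT and 0.41 in *met-2*. Over the WT control H3K9me3 was higher in the arm by 0.26 and WT H3K27ac lower by 0.19. The part of each mark and of the background in the ratios was not tested. The ratio of H3K9me2 to H3K9me3 reads differed less, with medians of -0.12 in the arm and -0.063 in the centre.

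**Figure D2:**
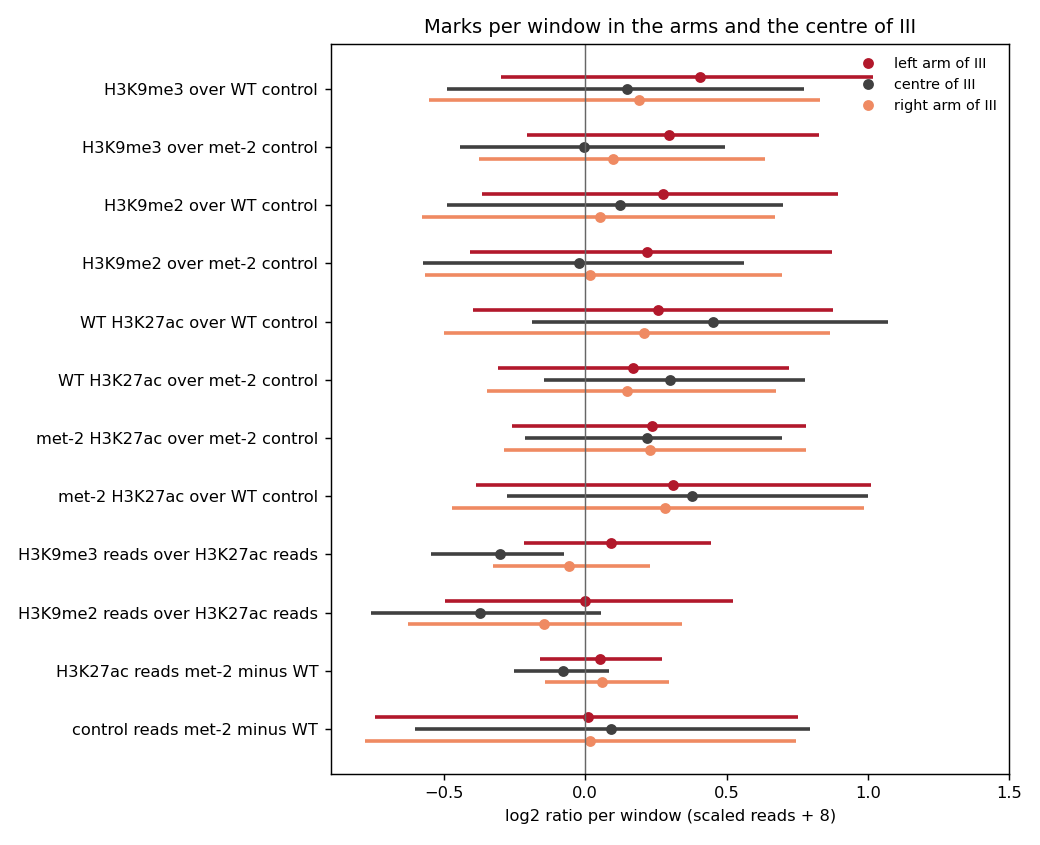
Medians (points) and quartiles (lines) over windows of the log2 ratios named on the y axis, for the left arm, the centre and the right arm of III. In the 4 H3K9me rows over a control the point of the left arm lies furthest right of the regions shown, with 0.41 for H3K9me3 over the WT control, and in the WT H3K27ac rows it lies left of the centre.

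Among the 10 autosome arms, divided from their centres where the study's methods place the borders, the left arm of III had the highest arm-minus-centre difference in H3K9me2 over the WT control (0.15). The lowest arm was the right arm of II at -0.11, and 3 of the 10 arms were above 0. In H3K9me3 over the WT control it ranked second at 0.26, after the right arm of IV at 0.28. Over the *met-2* control it ranked first for both marks, at 0.31 for H3K9me3 and 0.25 for H3K9me2. In H3K9me2 reads without a control it was again first, though still below its centre (-0.13, against -0.41 in the lowest arm). With no control subtracted, H3K9me3 reads gave it rank 4 of 10. Its control differences ranked 9 of 10 in WT (-0.35) and lowest in *met-2* (-0.41, level with the left arm of I), so this arm was also among those with the fewest control reads relative to the centre. The part of the control libraries in these ranks was not tested beyond the values given.

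WT H3K27ac was lower in the arm than in the centre. In scaled reads per window the median was 138 in the arm, 203 in the centre and 150 in the right arm, and in log2 reads the arm was lower by 0.53. In *met-2* the medians were 145 in the arm, 192 in the centre and 159 in the right arm, and the gap between the left arm and the centre was 0.39. In either genotype the arm was low and the centre high. The difference between the genotypes varied more from window to window in the arm, with an SD over windows of 0.34 on the log2 scale, against 0.26 in the centre. Arm windows held fewer H3K27ac reads, with medians of 111 in WT and 201 in *met-2*, against 163 and 266 in the centre. Their counting error was therefore larger, and its part in the SD was not tested. Windows with at least 2 times the genome median of H3K27ac in both genotypes numbered 44 in the arm (1.22%, beside 2.07% of all windows) and 268 in the centre (4.27%). Windows at or below 0.5 times the median in both genotypes (H3K27ac-poor) numbered 427 in the arm (11.9%, beside 8.69% of all windows) and 220 of the 6279 windows of the centre. The poor arm windows were also low in the other marks, with median log2 reads of 6.21 for H3K9me3 and 5.94 for H3K9me2. Those with at least 2 times the median had 8.59 and 8.43, against 7.28 and 7.20 for the whole arm. Both classes thus followed the read level of all 3 marks, and its part in them was not tested.

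Over the controls the H3K27ac gap was smaller. WT H3K27ac over the WT control had a median of 0.26 in the arm and 0.45 in the centre, a difference of -0.19, and 1432 arm windows (39.9%, beside 41.8% of all windows and 47.9% of the centre) were above 0.5 and 810 (22.6%, beside 21.3% and 15.6%) below -0.5. With TMM scaling the share of higher windows among these fell from 63.9% to 48.9%, and the medians were -0.0077 in the arm and 0.17 in the centre. For *met-2* H3K27ac over the *met-2* control the medians were 0.24 and 0.22, a difference of 0.018 (-0.022 to 0.056), and 1315 arm windows (36.6%, beside 31.0% of all windows and 34.1% of the centre) were above 0.5 and 542 (15.1%, beside 18.9% and 13.3%) below -0.5. Over the control of the other genotype the difference between the arm and the centre was -0.13 for WT and -0.067 for *met-2*, so the sign for *met-2* depended on the control library. Above 0.5 were 1216 arm windows for WT (33.9%, beside 30.0% of all windows) and 1532 for *met-2* (42.7%, beside 43.3%) in this setting.

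The arm was not uniform along its length. In bins of 100 kb, with 0 as the mean density over the genome on a log2 scale, WT H3K27ac ranged from -0.98 at 1.1 to 1.2 Mb to 0.24 at 3.6 to 3.7 Mb, with a median of -0.26. The *met-2* H3K27ac density had the same lowest and highest bins, at -0.90 and 0.27. Counting errors (SE) of single bins were at most 0.022 for the difference between those libraries. Centre bins of WT H3K27ac had a median of 0.36. The lowest of them, at 7.4 to 7.5 Mb, was low in every library, from -0.71 in the *met-2* control to -0.85 in H3K9me3, and without it the lowest centre bin was at 0.067. Of the 36 arm bins, 29 lay below that value. The arm bins above 0 in WT H3K27ac were 8, the 5 from 0.5 to 1.0 Mb and the 3 from 3.4 to 3.7 Mb next to the centre. The bin at 0.9 to 1.0 Mb (0.10) was among them only through the window at III 930943, which was high in every library. Without that window it was at -0.00053.

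H3K9me3 density in the arm was highest at 0.9 to 1.0 Mb (0.46) and lowest at 2.7 to 2.8 Mb (-0.45), with a median bin of -0.10. The peak at 0.9 to 1.0 Mb rested on 1 window, III 930943 to 931942, which held 7507 H3K9me3 reads and was at least 5 times the genome median in every library. Relative to the genome median it stood at 28.4 times in H3K9me3, 16.6 in H3K9me2, 8.85 (WT) and 12.1 (*met-2*) in H3K27ac, and 28.6 (WT) and 42.6 (*met-2*) in the controls. The window was as high without an antibody as with one. Without it the H3K9me3 density of the bin was 0.16, and the bin at 1.3 to 1.4 Mb (0.23) was the highest of the arm. H3K9me2 density was highest at 2.1 to 2.2 Mb (0.29) and lowest at 3.1 to 3.2 Mb (-0.38). Control reads ranged from -0.51 (3.1 to 3.2 Mb) to 0.29 (0.6 to 0.7 Mb) in WT and from -0.78 (1.1 to 1.2 Mb) to 0.34 (0.9 to 1.0 Mb) in *met-2*. The latter bin was at -0.13 in the *met-2* control without the window at III 930943, and the highest bin was then that at 0.7 to 0.8 Mb (0.038). Across the 36 bins the Spearman correlation of H3K9me3 with H3K9me2 density was 0.26, and that of WT H3K27ac with the WT control was 0.69. It was 0.95 between the H3K27ac libraries. These bins share the mappability and composition of the underlying sequence in all libraries.

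By this profile the arm could be described in 4 stretches, drawn after the values had been seen. From 0.1 to 0.5 Mb all 6 libraries were below the genome mean, from -0.10 for H3K9me2 to -0.40 for the *met-2* control. From 0.5 to 1.0 Mb all 6 were above it, with 0.14 for WT H3K27ac, 0.12 for *met-2* H3K27ac, 0.14 for H3K9me3, 0.080 for H3K9me2 and 0.22 and 0.030 for the WT and *met-2* controls. Without the window at III 930943 the *met-2* control of this stretch was below the mean, at -0.073, H3K9me3 was at 0.075 and H3K9me2 at 0.044, and the others lay between 0.095 and 0.17. The stretch from 1.0 to 2.5 Mb held the lowest H3K27ac densities, at -0.39 in WT and -0.33 in *met-2*, while H3K9me2 was at 0.018 and H3K9me3 at -0.092. Both H3K9me marks were highest there over the controls. The medians over the WT control were 0.53 for H3K9me3 and 0.46 for H3K9me2, with 51.1% and 48.0% of windows above 0.5, and over the *met-2* control they were 0.41 and 0.39. The controls in this stretch were at -0.27 in WT and -0.40 in *met-2*. From 2.5 to 3.7 Mb H3K9me3 was at -0.16, H3K9me2 at -0.11, WT H3K27ac at -0.11 and *met-2* H3K27ac at -0.057. The H3K9me medians over the WT control fell back to 0.30 and 0.13 there. H3K27ac-poor windows were commonest from 0.1 to 0.5 Mb (17.1%) and from 1.0 to 2.5 Mb (16.6%), and made up 4.01% of the stretch from 0.5 to 1.0 Mb. Over the whole arm these windows were low in H3K9me reads as well.

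The *met-2* H3K27ac library was then compared with WT, first in reads alone. The median log2 difference per window was 0.051 (0.034 to 0.065) in the left arm, 0.059 in the right arm and -0.080 (-0.088 to -0.072) in the centre. The arm was thus higher than the centre by 0.13. Above 0.5 were 361 arm windows (10.1%, against 7.16% of all windows and 97 windows or 1.54% of the centre). Below -0.5 were 140 arm windows (3.90%, against 3.07% of all windows and 292 windows or 4.65% of the centre). Windows whose own exact counting interval of the read ratio lay above 1 numbered 685 in the arm (19.1%, against 15.5% of all windows and 6.77% of the centre), and those with an interval below 1 numbered 411 (11.4%, against 13.0% and 22.1%). These intervals cover counting error only. Among the 10 arms the difference against the centre ranged from 0.071 to 0.16, all above 0, and the left arm of III ranked sixth at 0.13, so this contrast was not particular to it.

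In bins of 100 kb most of the arm lay above the centre in the difference. It ran from -0.088 (1.3 to 1.4 Mb) to 0.16 (2.0 to 2.1 Mb) in the arm, with a median bin of 0.039, and was above 0 in 29 of 36 bins. In the centre it ran from -0.18 to -0.019 and was above 0 in none of the 63 bins. All 36 arm bins were above the median bin of the centre, and 31 were above its highest bin. The 95% counting interval lay above 0 in 20 arm bins, below 0 in 3 and across 0 in 13, and it lay below 0 in 61 centre bins. The nearest bins on either side of the border were at 0.028 (SE 0.014, arm) and -0.026 (SE 0.015, centre), and the 95% counting intervals of both reached 0. By the median window these bins were at 0.0046 and 0.025, so that no step was seen at the border itself. The arm bins below 0 were at 0.4 to 0.5, 0.6 to 0.9, 1.2 to 1.4 and 1.7 to 1.8 Mb. Those at 0.7 to 0.8 and 0.8 to 0.9 Mb (-0.081 and -0.077, SE 0.015 each) lay in the stretch with high H3K27ac, whereas that at 1.3 to 1.4 Mb had a low WT H3K27ac density of -0.32 and a high H3K9me3 density of 0.23. In the bin with the window that was high in all libraries the difference was 0.034, and without that window it was -0.011. The control difference along the arm was more scattered. It ran from -0.48 to 0.14 with a median bin of -0.16, against -0.039 in the centre, and its order along the arm had a Spearman correlation of 0.25 with that of H3K27ac over the 36 bins.

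**Figure D3:**
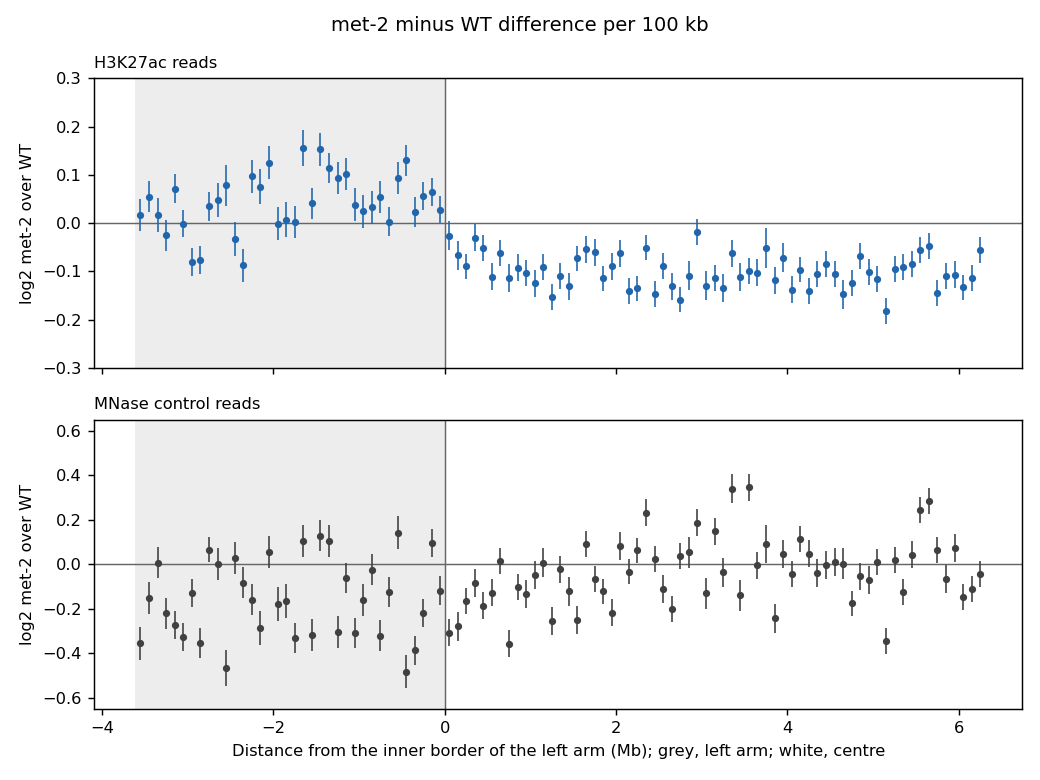
Difference of *met-2* minus WT in log2 reads per 100 kb bin (y axis) against the distance from the inner border of the left arm in Mb (x axis), for H3K27ac (top) and the MNase controls (bottom), with 95% counting intervals. H3K27ac differences sit mostly above 0 in the grey left arm, up to 0.16, and below 0 in all bins of the white centre, and the control differences range from -0.48 to 0.14 in the arm.

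Windows with little H3K27ac had higher differences, and the arm holds more of them, so the arm and the centre were compared at the same H3K27ac level. The windows of both regions were split into 10 bins by the mean of their log2 H3K27ac reads in the 2 genotypes, a step chosen after values had been seen. The arm was above the centre in 10 of 10 bins, by 0.038 to 0.17 with a median of 0.079. The 95% intervals over windows did not overlap in 9 of the 10 bins, though some margins were very small. In the bin with 228 scaled reads the lower limit of the arm was -0.0689 and the upper limit of the centre -0.0696. Neighbouring windows were related in this difference, with Spearman correlations of 0.23 in the arm and 0.11 in the centre. The intervals treat windows as independent and are too narrow, so this count is descriptive and not a test. In the lowest bin, with a median of 61.4 scaled reads, the medians were 0.16 in the arm (697 windows) and -0.016 in the centre (291 windows). In the highest bin, with 324 scaled reads, they were -0.12 (152 windows) and -0.18 (835 windows). The difference thus went down with the level in both regions, and part of the overall gap of 0.13 went with the level.

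**Figure D4:**
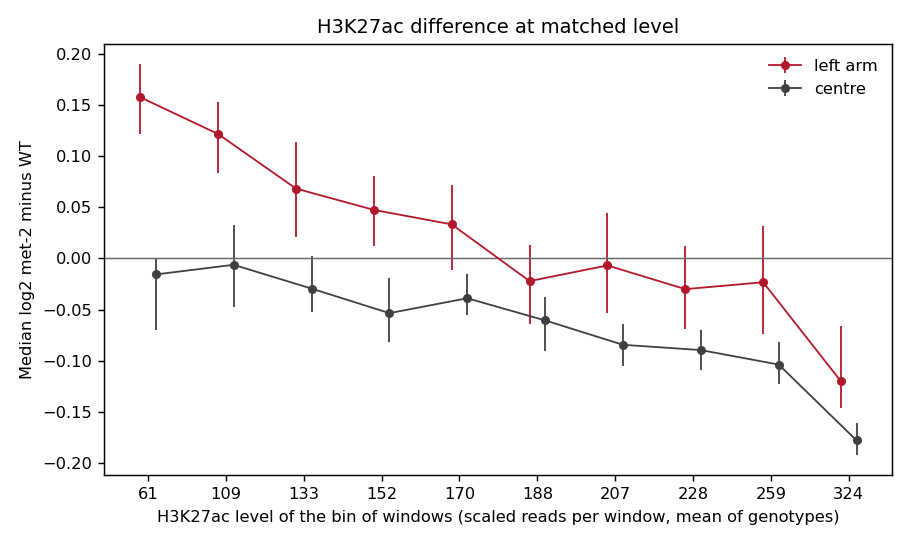
Median log2 difference in H3K27ac reads, *met-2* minus WT (y axis), for windows of the left arm and the centre in 10 bins of equal H3K27ac level (x axis, median scaled reads of the bin), with 95% intervals over windows. The arm lies above the centre in 10 of 10 bins, by 0.038 to 0.17.

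The H3K27ac difference was set against the H3K9me of the same windows in WT. Among arm windows enriched for H3K9me3 over both controls the median difference was 0.097, and 11.9% of them were above 0.5, close to the 0.095 and 12.3% of this class over all windows. Among those enriched for H3K9me2 over both controls it was 0.017, and 7.95% were above 0.5, beside 6.71% of this class over all windows. In the centre the medians of these classes were -0.051 and -0.086. Split by H3K9me3 reads into 4 groups of equal size, the arm windows with the fewest reads had a median difference of 0.17 and those with the most -0.059. For H3K9me2 reads the corresponding values were 0.22 and -0.062. WT H3K27ac rose along the same groups, from a median log2 value of 6.39 to 7.76 for H3K9me3, and the part of read level in this pattern was not tested. By the ratio of H3K9me3 to WT H3K27ac reads the order was the opposite, with -0.076 in the lowest of the 4 groups and 0.18 in the highest, where 18.0% of windows were above 0.5. WT H3K27ac reads enter both that ratio and the difference. Across the 3592 arm windows the Spearman correlation of the difference was -0.21 with H3K9me3 reads and -0.30 with H3K9me2 reads.

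Over the controls the H3K27ac difference followed the difference between the controls. Its median was 0.030 (-0.010 to 0.070) in the arm and -0.16 (-0.20 to -0.13) in the centre, a difference of 0.19. In the arm 1182 windows (32.9%, beside 28.2% of all windows and 25.7% of the centre) were above 0.5 and 1114 (31.0%, beside 36.7% and 37.8%) were below -0.5. With TMM scaling 1416 arm windows (39.4%, beside 33.9% of all windows and 32.0% of the centre) were above 0.5. Below -0.5 were 909 (25.3%, beside 30.5% and 31.3%), and the medians were 0.21 in the arm and 0.016 in the centre. Across arm windows this measure had a Spearman correlation of -0.95 with the difference between the controls and of 0.13 with the difference in H3K27ac reads. The control reads enter this measure by construction. The median of control reads, *met-2* minus WT, was 0.0092 in the arm and 0.089 in the centre, and 33.1% of arm windows were above 0.5, beside 37.9% of all windows. Windows past 0.5 in the same direction in reads and over the controls numbered 157 higher (4.37%, against 3.09% of all windows and 0.844% of the centre) and 57 lower (1.59%, against 1.55% and 2.12%).

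The 361 arm windows higher in *met-2* had medians below those of the whole arm in every library. Their medians were 83.3 scaled reads of WT H3K27ac and 137 of *met-2* H3K27ac, against 138 and 145 for the whole arm. Their control medians were 58.4 in WT and 89.2 in *met-2*, against 112 and 117 for the whole arm, and their H3K9me3 and H3K9me2 medians were 107 and 81.1, against 148 and 140 for the whole arm. Of these windows 5.82% had under 20 WT H3K27ac reads. The 140 lower windows had medians of 170 and 103 scaled H3K27ac reads, and 177 of H3K9me2. The higher windows formed 283 runs of neighbouring windows, 216 of them single, and the longest spanned 4 windows. One of the runs of 4 lay at III 701946 to 705944, with 120 WT and 341 *met-2* H3K27ac reads. The other lay at III 2515929 to 2519928, with 288 and 858. The second run falls in the bin from 2.5 to 2.6 Mb, which had the highest share of such windows in the arm (22%).

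Single windows at the ends of the range were named by rule among the 3508 arm windows that averaged at least 20 scaled reads. They were ranked on the same reads that give their ratios, which favours extreme values. The counting intervals given for them do not allow for that choice. The largest rise in H3K27ac reads in *met-2* was at III 2113932 to 2114931, with 8 reads in WT and 61 in *met-2*, a depth-scaled ratio of 4.44 (95% exact counting interval 2.11 to 10.7). Next came III 2396930 to 2397929, with 15 and 86 reads (ratio 3.34, 1.91 to 6.22), and III 3125923 to 3126922, with 24 and 124 (ratio 3.01, 1.93 to 4.87). All of them were below the median arm window in H3K27ac, and the second held 4 H3K9me2 reads. The largest falls were at III 1699936 to 1700935, with 44 reads in WT and 16 in *met-2* (ratio 0.212, 0.111 to 0.382), at III 414948 to 415947, with 365 and 271 (ratio 0.432, 0.368 to 0.507), and at III 1251940 to 1252939, with 15 and 6 (ratio 0.233, 0.0740 to 0.635). The window at III 414948 was the deepest of the 6 and held 3236 H3K9me2 reads, against 575 of H3K9me3 and 210 of the WT control.

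The highest H3K9me2 over the WT control was at III 1001943 to 1002942, with 774 H3K9me2 and 17 control reads (ratio 18.9, 11.7 to 32.5). It remained high over the *met-2* control, at 1.95 on the log2 scale, while H3K9me3 over that control was -0.17. III 3256922 to 3257921 followed, with 692 reads over 20 (ratio 14.3, 9.21 to 23.6) and 2.01 over the *met-2* control, and then III 2859926 to 2860925, with 365 over 9 (ratio 16.8, 8.75 to 37.0) and 1.36. H3K9me3 over the *met-2* control was lower than H3K9me2 in all 3, at 0.12 in the second and 0.53 in the last. The windows were picked for high H3K9me2, so that order was favoured by the choice. The highest H3K9me3 values over the WT control rested on few control reads. At III 2237931 to 2238930 there were 202 H3K9me3 and 2 control reads (ratio 35.0, 9.56 to 291), and at III 323949 to 324948 there were 184 and 3 (ratio 21.2, 7.16 to 104). Both kept an H3K9me3 excess over the *met-2* control, of 1.60 and 2.04, but that control held only 5 and 3 reads there. Their scaled H3K9me3 reads, 120 and 110, were below the arm median of 148, so both were short of reads in either control rather than rich in H3K9me3. At III 2353930 to 2354929, with 171 and 2 reads, that excess was only 0.18, and the same window was the highest for WT H3K27ac over the WT control, with 0.094 over the *met-2* control. The window at III 2353930 was likewise one with few WT control reads rather than many reads of a mark.

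The remaining high windows of WT H3K27ac were also above 0.5 over the *met-2* control. III 780945 to 781944 had 258 H3K27ac and 18 control reads (ratio 10.4, 6.43 to 17.8) and 1.48 over the *met-2* control. III 3516919 to 3517918 had 76 and 3 (ratio 18.3, 6.04 to 90.8) and 1.53, with only 4 reads in the *met-2* control. Its 94.5 scaled H3K27ac reads were below the arm median of 138, and H3K9me3 over the *met-2* control was high there too (1.33). It was a window with few control reads rather than many H3K27ac reads. In *met-2* the highest windows over the control had no control read. Against an assumed floor of 3 reads in that library, the depth-scaled ratio of *met-2* H3K27ac was 9.91 at III 2752927 to 2753925, 6.85 at III 3299921 to 3300920 and 4.74 at III 1479938 to 1480937. The lower limits of the 95% exact counting intervals were 8.01, 5.52 and 3.81. At the low end, III 505947 to 506946 held 57 WT H3K27ac and 599 WT control reads (ratio 0.0689), and neighbouring windows at III 1300940 to 1302939 held the lowest *met-2* H3K27ac over the control, with 37 over 64 and 21 over 22 reads. The latter were low in WT H3K27ac too, with 29 and 11 reads. The lowest H3K9me3 over the WT control was at III 3218922 to 3219921, with 174 H3K9me3 and 577 control reads (ratio 0.104, 0.0877 to 0.124). The same window held 901 H3K9me2 reads and was at 3.54 for H3K9me2 over the *met-2* control, which had 7 reads there. The lowest H3K9me2 over the WT control was at III 3470920 to 3471919, with 113 against 565 reads.

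Enriched windows formed longer runs in the arm than in the centre for the H3K9me marks and shorter ones for H3K27ac. For H3K9me3 over the WT control, 58 runs of at least 5 windows held 22.9% of the enriched arm windows, against 14.0% in the centre. The corresponding shares for H3K9me2 were 17.6% (41 runs) and 6.40%, and those for WT H3K27ac were 16.1% (38 runs) and 24.0%. Over the *met-2* control the order was kept for H3K9me3 (13.3% and 3.27%) and H3K9me2 (18.6% and 5.39%) and, with a small gap, for WT H3K27ac (8.39% and 10.3%). A higher share of enriched windows alone lengthens runs. The longest runs of H3K9me3 spanned 16 windows each, at III 1281940 to 1297939 and at III 2236931 to 2252930. In the first the H3K9me3 density was 0.30 on the log2 scale of the genome mean, WT H3K27ac was at -0.28, and the WT control was at -1.1. The second had 0.58 for H3K9me3, -0.31 for WT H3K27ac and -0.85 for the WT control. In the second run H3K9me2 also passed in a stretch of 10 windows (III 2242931 to 2252930), 1 of 3 runs of that length for this mark. The others were at III 1790935 to 1800934 and III 2208932 to 2218930. Over the *met-2* control the longest H3K9me2 run had 25 windows, at III 2190932 to 2215930, with 9082 H3K9me2 reads and a density of 0.61 against -0.44 for H3K9me3. For WT H3K27ac the longest run had 11 windows (III 1338940 to 1349939), followed by 9 windows each at III 524947 to 533946 and III 2018933 to 2027932. The run of 11 had a WT control density of -0.86 and overlapped a run of 15 H3K9me3 windows (III 1339940 to 1354938).

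The overlap of marks within the arm depended on the control they shared. Of the 1446 windows enriched for H3K9me2, 1101 (76.1%, Wilson 95% interval 73.9 to 78.3) were enriched for H3K9me3 when both were set over the WT control, and these were 66.5% of the 1656 H3K9me3 windows. The same share of H3K9me2 windows was 76.2% over all windows and 71.6% in the centre, so this overlap was not particular to the arm. When H3K9me2 was set over the *met-2* control and H3K9me3 over the WT control, 629 of 1391 windows (45.2%) and 38.0% of the H3K9me3 windows overlapped. The former was close to the 46.1% of the arm that was enriched for H3K9me3. Over all windows the overlap was 37.7% of the H3K9me2 windows, where 42.7% of windows were enriched for H3K9me3. The Spearman correlation across the 3592 windows was 0.71 with the shared control and -0.053 with separate ones, and it was 0.62 for the reads of H3K9me2 and H3K9me3 without a control. With the shared control, H3K9me3 correlated with WT H3K27ac as well (0.86), against 0.066 with separate controls and 0.73 for the reads without a control. Reads of the H3K27ac libraries correlated at 0.87 and those of the controls at 0.48. Neighbouring windows were related, at 0.28 for H3K9me3 and 0.34 for WT H3K27ac reads, so that the intervals over windows given above, which treat windows as independent, are too narrow.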

How the data were processed

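The deposited values were raw read counts per window of ce10. According to the methods and processing notes, the authors used Trimmomatic 0.39 for trimming, bowtie2 for alignment, Bismark for removing duplicates and QuasR for counting in any orientation. The deposited windows were of about 1 kb, wider than the 500 bp named in the methods. How reads mapping to several places were handled was not stated, so counts over repeats are uncertain. No column was left unmapped.

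Windows without a read were left out (808 of 100293). Counts were divided by the library total and multiplied by the average total (16977530), and log2(value + 8) was taken, as in the study's methods. Values over a control subtract the MNase control, and 0.5 marked an enriched or changed window. Medians carry 95% order-statistic intervals, and shares Wilson intervals. TMM factors came from edgeR 4.0.16, and other steps used Python 3.11.15 and SciPy 1.17.1, tested on simulated counts. The arm, the windows compared and the rule for named windows (the 3 highest and 3 lowest per measure, the longest runs and the extreme bins) were chosen with earlier results of these data known. Alternatives are given in the closing section.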

Additional observations from a re-analysis of the deposited data

How the results depend on the processing

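No paired analysis was possible because each of the 6 groups holds a single library, and no library could be left out. The arm-minus-centre differences were recomputed with 1 as the pseudocount, a filter of 20 scaled reads on average, 10 kb sums, other controls, TMM scaling, the borders in the study's methods, the centre from 5 to 9 Mb and means. With no control, H3K9me3 and H3K9me2 reversed, to -0.12 and -0.15, WT H3K27ac moved from -0.19 to -0.53, *met-2* H3K27ac from 0.018 to -0.39 and the H3K27ac enrichment difference from 0.19 to 0.13. With the control of the other genotype H3K9me2 moved to 0.24, WT H3K27ac to -0.13, *met-2* H3K27ac to -0.067 and the H3K27ac enrichment difference to 0.075. With 10 kb sums H3K9me3 moved to 0.15, WT H3K27ac to -0.24, the enrichment difference to 0.26 and the control difference from -0.080 to -0.14. The H3K27ac difference in reads stayed between 0.079 and 0.15, the lowest being the median over 10 level bins, an alternative chosen after seeing the data, as was leaving out 0.5 to 1.0 Mb for this difference (0.14). The cause of these shifts was not tested.

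Shares of arm windows moved as follows. At these settings shares were computed for the arm alone, so they cannot be set against all windows or the centre. At a threshold of 1 they were 25.5% for H3K9me3, 21.5% for H3K9me2, 21.2% for WT and 17.7% for *met-2* H3K27ac, 0.696% for H3K27ac reads higher and 0.0835% lower in *met-2*, and 19.9% and 16.1% over the controls. With 10 kb sums they were 17.8%, 19.2%, 10.3%, 10.6%, 0.278%, 0%, 21.4% and 6.94% in the same order. Without a control, relative to the genome median, they were 16.3%, 25.2%, 12.4% and 10.5% for the 4 antibody libraries, and 10.1% and 3.90% for the differences. Runs of at least 5 windows numbered 13, 8 and 5 for H3K9me3, H3K9me2 and WT H3K27ac at a threshold of 1, and 31 for H3K9me3 and 18 for WT H3K27ac with the other control. H3K9me2 windows also enriched for H3K9me3 were 70.1% with the other control, 59.2% at a threshold of 1, 45.2% and 43.4% with separate controls and 36.2% without one.

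TMM scaling moved the median of all windows by -0.28 for H3K9me3 and -0.28 for WT H3K27ac over the WT control, -0.16 for H3K9me2, 0.18 for the enrichment difference and -0.19 for the controls. TMM applies a constant factor to each library, which cancels in an arm-minus-centre difference apart from the pseudocount. That these differences kept their direction was thus fixed in advance and does not test them. Of the arm windows past 0.5 in either direction, 70.2% were higher for H3K9me3 and 55.7% with TMM. For WT H3K27ac these were 63.9% and 48.9%. Depth limits single windows, most of all over the *met-2* control with its median of 17 reads per arm window.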
